A study of Mus musculus with 4 samples.

Results

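The genes described here carry interleukin-6 and interleukin-1 signals into the liver cell. They are 10 genes, taken from the table by their symbols. The receptors are Il6ra, Il6st, Osmr, Lifr and Il1r1, and Il1rn encodes a receptor antagonist. The others are the transcription factor Stat3, the feedback inhibitor Socs3, and the C/EBP factors Cebpb and Cebpd. All 10 were found among the 35275 genes of the read count table, each with 1 row, and all 10 reached 1 CPM (read counts per 1e+06 counts of a library) in every library. Liver RNA came from female mice that all carried the amyloidogenic Apoa2c allele. The sample labels give the strain as AKR/J with an Apoa2c congenic genotype, whereas the study's methods describe R1.P1-Apoa2c mice on a SAMR1 background. The groups were VS (vehicle, sedentary), VI (vehicle, interval training or IT), FS (AApoAII fibrils, sedentary) and FI (fibrils, IT). Fibril mice had received 1 μg fibrils intravenously to seed amyloidosis and the others the vehicle PBS alone, training was running on a treadmill, and livers were taken at 26 weeks of age after 16 weeks of training or of sedentary life. By the study's account organs were collected within a day after training. A response to the last session therefore cannot be told apart from one to the 16 weeks. The study reported less liver amyloid in trained than in sedentary fibril mice, so FS and FI need not carry the same amyloid load. The study ran its mice in several series at different times, and the series behind each pool is not stated. Tissue of 4 mice was pooled into 1 library per group, so no ratio between libraries has a replicate error, and the intervals given at 95% cover counting error only.

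IL6 binds its receptor IL6RA, and the pair engages IL6ST (gp130), the signalling chain that is also used by the receptors for leukaemia inhibitory factor (LIFR) and oncostatin M (OSMR). Janus kinases on gp130 then phosphorylate STAT3, which enters the nucleus and drives genes that include Socs3, whose product binds gp130 and its kinases and ends the signal. IL-1 acts through IL1R1 and NF-κB, is blocked by the antagonist encoded by Il1rn, and together with IL6 raises the C/EBP factors β and δ. In the liver, STAT3 and C/EBP are the classic drivers of acute phase protein genes such as the serum amyloid A genes. These proteins work largely through phosphorylation, which mRNA counts do not measure.

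The promoter of Socs3 is shown because it alone, of the genes searched, held a STAT motif. The 250 bases before the RefSeq start of each gene (GRCm38.p6) were searched on both strands for the STAT motif TTCNNNGAA and the C/EBP motif TTNNGNAA. A total of 9 of the 10 genes had a window, Cebpd being the other, and genes with more than 1 start gave 13 windows in all. The STAT motif was found in 1 of the 9, Socs3, against 8.13% of the 27025 genes with such windows. The Socs3 window lies at chr11:117969367-117969616 on the minus strand, has a GC content of 71.6% and shares 77 bases with an exon of a noncoding Socs3 transcript. In it the motif, in capitals, starts 154 bases before the RefSeq start. That start lies inside the Socs3 gene as positioned beside the counts.
Socs3: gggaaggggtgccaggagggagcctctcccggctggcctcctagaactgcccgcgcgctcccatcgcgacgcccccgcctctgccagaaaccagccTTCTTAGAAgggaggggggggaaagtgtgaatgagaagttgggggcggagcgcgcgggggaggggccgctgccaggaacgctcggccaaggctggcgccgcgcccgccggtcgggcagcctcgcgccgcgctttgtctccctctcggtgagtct

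The C/EBP motif was found in 4 of the 9 genes, Il6ra, Il1r1, Il1rn and Stat3, against 40.3% of all genes, which is close to the background. No gene of the 9 held both motifs, so no match of one overlapped a match of the other. The match nearest to a RefSeq start of each gene and outside any untranslated exon is given in capitals within 30 bases. For Il1rn that start, at 24345291, lies inside the gene as positioned beside the counts. It lies at chr3:89913248-89913277 (minus strand) for Il6ra, chr1:40224936-40224965 (plus) for Il1r1, chr2:24345199-24345228 (plus) for Il1rn and chr11:100939728-100939757 (minus) for Stat3. The Il6ra stretch falls in an exon of the antisense gene Gm42809. All stretches are written on the strand of the gene, and those of Il6ra and Il1r1 match the motif on the opposite strand.
Il6ra: ttcagcaccggTTCCTCAAatgtttcactg
Il1r1: gcctggcacgtTTGCTGAAtgcttctggct
Il1rn: agaacttaattTTGGGGAAattacacaggg
Stat3: cccccgggcttTTTTGTAAgctaggcctct
These matches are letters in a window and say nothing of binding in these livers.

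The libraries held between 23442935 and 28814802 counts, and a count of 0 allows up to 3 counts, or 0.102 to 0.127 CPM. Markers of hepatocytes (6 genes) summed to between 153120 and 170132 CPM. Markers of Kupffer cells, the resident macrophages of the liver, summed to 208 CPM (VS), 260 (VI), 324 (FS) and 307 (FI), and 7 of 7 were higher in FS than in VS and in FI than in VI. Neutrophil markers (10 genes) summed to 3.73 CPM (VS), 3.61 (VI), 7.86 (FS) and 4.55 (FI). No marker of these lists had 0 counts in all 4 libraries. Skeletal muscle markers summed to 70.2 CPM in VS against 8.95 in VI, 0.948 in FS and 0.703 in FI. The VS library thus stands furthest apart, and VI also lies above both fibril libraries. FS versus VS, VI versus VS and the difference between both training ratios all use VS, whereas FI versus VI and FI versus FS do not. Yet FI versus VI also sets a fibril library against a vehicle library with higher muscle markers. In bulk liver, more cells of a type cannot be told apart from more RNA per cell, and the part of the Kupffer cell and neutrophil markers in the results below was not tested.

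Levels of the genes differed widely in every library. Compared per length as deposited FPKM, Cebpb was the highest, with 101 FPKM (VS), 123 (VI), 123 (FS) and 139 (FI), and Osmr, the oncostatin M receptor chain, was the lowest in all 4, at 0.365, 0.208, 0.872 and 0.551 FPKM. In VS the order below Cebpb was Stat3 (22.3 FPKM), Il6ra (20.6), Il6st (15.4), Lifr (12.2), Il1r1 (8.97), Cebpd (7.27), Il1rn (5.91) and Socs3 (3.76). The counting intervals of Stat3 and Il6ra overlapped, as did those of Cebpd and Il1rn, so those neighbours were not separated. In FI, Il1r1 (35.8 FPKM) and Il6ra (33.7) stood directly below Cebpb, with overlapping intervals.

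**Figure D1:**
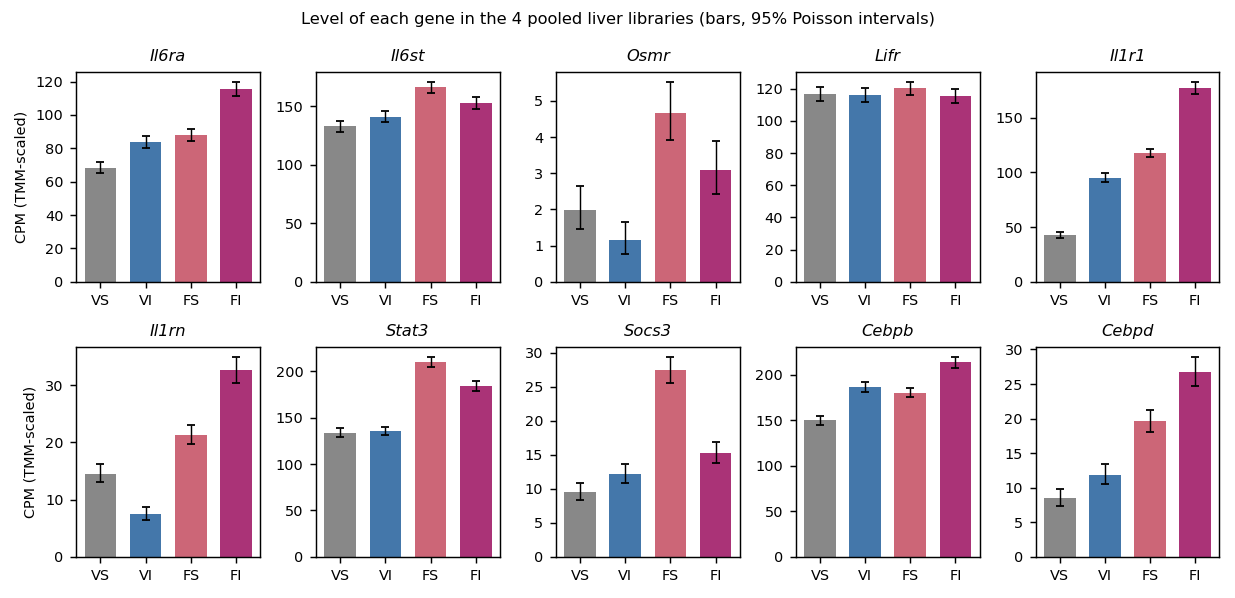
Level of each gene in CPM (vertical axes from 0, 1 scale per gene) in the 4 pooled libraries VS, VI, FS and FI; bars are 1 library each and whiskers are 95% Poisson intervals. Socs3 stands at 27.4 CPM in FS against 9.53 to 15.3 in the other libraries, Il1r1 is lowest in VS at 43.0 CPM and highest in FI at 177, and Lifr stays between 115 and 120.1.

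The comparison of fibril with vehicle livers addressed how amyloidosis relates to these transcripts. In sedentary mice each of the 10 had more CPM in the FS library than in VS, although the interval of Lifr included 0 and its ratio turned to −0.023 with upper quartile scaling, and 4 were higher by more than 2-fold: Socs3, Il1r1, Osmr and Cebpd. Beyond 2-fold in that comparison were 3.6% of the 12180 genes measured in the higher direction and 2.18% in the lower. In trained mice FI exceeded VI for 9 of the 10, Lifr being the exception, with 3 of them (Il1rn, Osmr and Cebpd) beyond 2-fold, against 2.59% of all genes higher and 1.95% lower. The median log2 ratio of the 10 genes was 0.60 in FS versus VS and 0.45 in FI versus VI, beside 0.02 and 0.01 for all genes. These 2 comparisons share no library, whereas both comparisons with VS share VS and both with FI share FI.

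**Figure D2:**
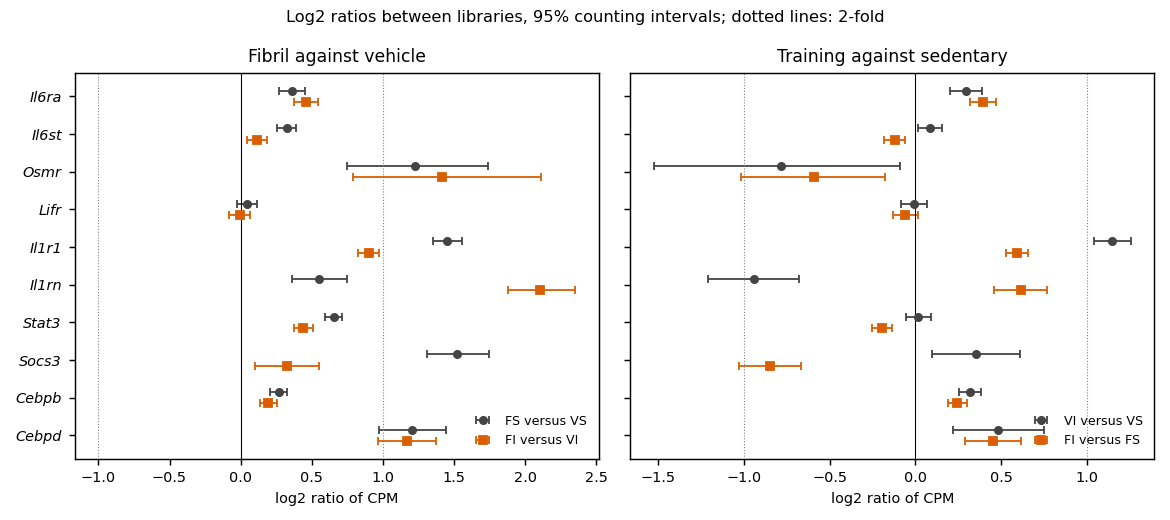
Log2 ratios of CPM (horizontal axis) for the 10 genes, fibril against vehicle on the left and trained against sedentary on the right; points are ratios between 2 libraries, whiskers 95% counting intervals and dotted lines 2-fold. Osmr and Cebpd lie beyond 2-fold on the left in both sedentary (1.22 and 1.20) and trained mice (1.42 and 1.17), and Il1rn and Socs3 lie on opposite sides of 0 on the right.

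An additive model of amyloidosis and training over all 4 libraries gives a test if both effects are taken as additive, with 1 residual degree of freedom. Its amyloidosis term sets FS and FI against VS and VI, and so stands for fibril injection and not for amyloid load. In the quasi-likelihood test of edgeR, adjusted by Benjamini-Hochberg over 11760 genes, 4 of the 10 genes rose with amyloidosis. They were Il1r1 (log2 coefficient 1.17 ± 0.149 SE), Cebpd (1.18 ± 0.14), Osmr (1.31 ± 0.265) and Stat3 (0.54 ± 0.119). SE here is the size of the coefficient over the square root of the F statistic of the test, not a spread across mice. Their adjusted p-values in edgeR's test were 0.00679 for Il1r1, 0.0051 for Cebpd, 0.03 for Osmr and 0.0399 for Stat3. Over all genes the model called 2.81% higher and 2.17% lower with amyloidosis. The 4 calls need both factors in the model, since none of the 10 genes passed when training was left out, and Osmr did not pass in DESeq2 (adjusted p = 0.119). Additivity did not hold in the counts of Il1r1 and Stat3. Their training ratios in fibril and vehicle mice differed by −0.55 (−0.68 to −0.43) and −0.21 (−0.30 to −0.12). For Osmr and Cebpd the interval of that difference included 0.

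**Figure D3:**
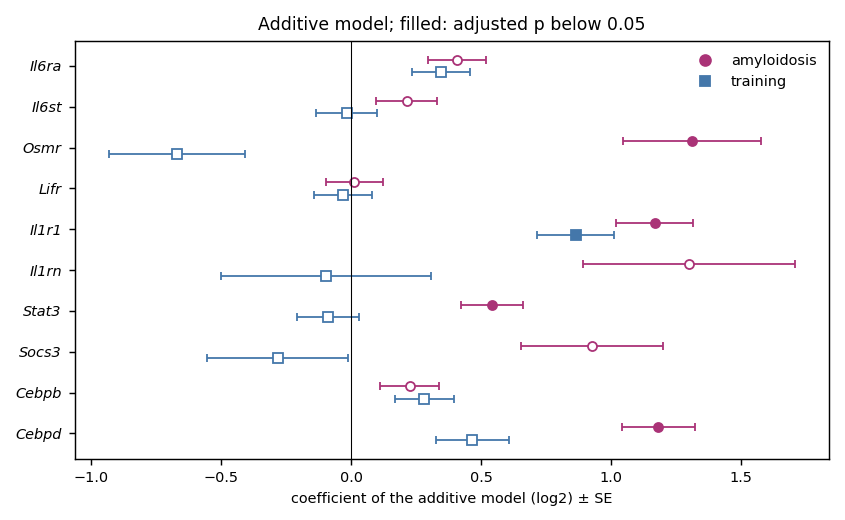
Coefficients of the additive model on the log2 scale (horizontal axis) for amyloidosis (circles) and training (squares). Whiskers are SE, computed as the size of the coefficient over the square root of the F statistic. Filled symbols passed an adjusted p of 0.05 in edgeR's test. Il1r1, Cebpd, Osmr and Stat3 passed for amyloidosis, and Il1r1 alone passed for training, at 0.86.

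Among the receptors, Il1r1, the signalling receptor of IL-1, differed in all 4 libraries. Its level was 43.0 CPM (VS), 95.1 (VI), 118 (FS) and 177 (FI), so that each single treatment was above VS and the combination was highest. The log2 ratio of fibril to vehicle was 1.45 (interval 1.35 to 1.56) in sedentary and 0.90 (0.83 to 0.97) in trained mice. Osmr was counted 47 (VS), 28 (VI), 138 (FS) and 75 (FI) times, which is 1.99, 1.15, 4.67 and 3.10 CPM. Both fibril libraries were above both vehicle libraries, at log2 ratios of 1.22 (0.74 to 1.74) and 1.42 (0.79 to 2.11). On the scale of log2(FPKM + 1) the same ratios were 0.46 and 0.36.

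Il6ra, the IL6-binding chain, was at 68.3 CPM (VS), 83.9 (VI), 87.9 (FS) and 115 (FI). Its amyloidosis coefficient of 0.41 ± 0.111 SE had an adjusted p of 0.0783 in edgeR's quasi-likelihood test, and it passed the threshold when libraries were scaled by upper quartile (0.0499) or when no filter on low counts was used (0.0172). The shared chain Il6st was at 133 CPM (VS), 141 (VI), 166 (FS) and 153 (FI), so the fibril libraries were the higher ones by little. Its amyloidosis coefficient was 0.21 ± 0.117 SE (edgeR adjusted p = 0.338). Lifr, the receptor chain for leukaemia inhibitory factor, was at 116 CPM in VS and in VI, 120.1 in FS and 115 in FI. It was the member with the narrowest range, and the intervals of all 4 of its log2 ratios, which lay between −0.06 and 0.04, included 0. Per length, Il6ra stood above Il6st in each library, with an FPKM ratio of 1.34 (VS), 1.54 (VI), 1.37 (FS) and 1.96 (FI).

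Stat3 was at 134 CPM (VS), 135 (VI), 210.3 (FS) and 184 (FI). Both fibril libraries were above both vehicle libraries, with log2 ratios of 0.65 (0.59 to 0.72) in sedentary and 0.44 (0.38 to 0.51) in trained mice. Socs3, the feedback inhibitor whose window carries the STAT motif shown above, was at 9.53 CPM (VS), 12.2 (VI), 27.4 (FS) and 15.3 (FI). It was thus highest by far in FS, and the fibril ratio was 1.52 (1.31 to 1.74) without training and 0.33 (0.10 to 0.55) with it. Its amyloidosis coefficient was 0.93 ± 0.273 SE, with an adjusted p of 0.114 in edgeR's quasi-likelihood test. The genes whose profile over the 4 libraries was nearest to Socs3, among 8888 with a mean of at least 5 CPM, were Gskip, Sec23b and Itih5, whose centred log2 CPM differed from that of Socs3 by at most 0.08, 0.13 and 0.13 in any library.

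Cebpd, an immediate early C/EBP factor of the acute phase, was at 8.51 CPM (VS), 11.9 (VI), 19.6 (FS) and 26.8 (FI). Fibril libraries were above vehicle libraries at a log2 ratio of 1.20 (0.97 to 1.44) in sedentary and 1.17 (0.97 to 1.37) in trained mice. Cebpb, its more abundant relative, was at 150.1 CPM (VS), 187 (VI), 181 (FS) and 214 (FI), and differed less, at 0.27 (0.20 to 0.33) and 0.19 (0.14 to 0.25). Its amyloidosis coefficient was 0.22 ± 0.114 SE (edgeR adjusted p = 0.302). The FPKM ratio of Cebpd to Cebpb was 0.0723 (VS), 0.0812 (VI), 0.139 (FS) and 0.16 (FI). The profiles nearest to that of Cebpb were those of Arsa, Prmt5 and Dcaf13, with largest differences of 0.015, 0.02 and 0.023.

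The comparison of trained with sedentary mice was made once in vehicle and once in fibril livers. In vehicle mice Il1r1 alone of the 10 was beyond 2-fold, at a log2 ratio of 1.14 (1.04 to 1.25) in VI versus VS, against 1.54% of all genes higher and 1.9% lower. In fibril mice no member was beyond 2-fold in FI versus FS, where 1.72% of all genes were higher and 2.54% lower. The median of the 10 ratios was 0.19 and 0.09, beside medians near 0 for all genes. In the additive model Il1r1 was the only member that rose with training, at 0.86 ± 0.148 SE (edgeR quasi-likelihood, adjusted p = 0.0363), while the model called 0.765% of all genes higher and 0.714% lower. That call was lost with a filter at 5 CPM (adjusted p = 0.066) and with amyloidosis left out of the model (0.943). The model also takes the training effect as equal in vehicle and fibril mice, where the log2 ratios of Il1r1 were 1.14 and 0.59. The adjusted p-values of the other 9 genes for training lay between 0.175 and 0.97 in edgeR's test.

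Il6ra, Cebpb and Cebpd were each higher in the trained library in both settings. Their log2 ratios were 0.30 and 0.39 for Il6ra, 0.32 and 0.24 for Cebpb, and 0.48 and 0.45 for Cebpd, in vehicle and fibril mice in turn. Osmr was lower in the trained library in both, at −0.78 (−1.52 to −0.09) and −0.59 (−1.02 to −0.18). None of these passed the test for training. Stat3 was close to 0 in vehicle mice (0.02, −0.05 to 0.09) and lower in the trained library of fibril mice (−0.19, −0.25 to −0.14).

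The crossed design also asks whether training goes with the same difference in both settings. For Il1rn, which encodes the antagonist that occupies IL1R1 without signalling, it did not in these libraries. Its level was 14.5 CPM (VS), 7.55 (VI), 21.3 (FS) and 32.6 (FI), so the trained library was the lower one in vehicle mice and the higher one in fibril mice. The log2 ratio of trained to sedentary was −0.94 (−1.21 to −0.68) in vehicle mice and 0.61 (0.46 to 0.77) in fibril mice, a difference of 1.55 (1.25 to 1.85). Had both single differences added up in CPM, FI would have stood at 14.3 CPM. The fibril ratio of Il1rn was accordingly 0.55 (0.36 to 0.75) without training and 2.11 (1.88 to 2.35) with it, and its amyloidosis coefficient of 1.30 ± 0.407 SE had an edgeR adjusted p of 0.181. It passed in limma-voom (adjusted p = 0.0356) and without robust estimation in edgeR (0.0497).

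Socs3 differed the other way. The trained library was higher in vehicle mice (0.35, 0.10 to 0.61) and lower in fibril mice (−0.84, −1.03 to −0.67), a difference of −1.19 (−1.50 to −0.89), and the sum of single differences would have put FI at 30.0 CPM rather than 15.3. For Il1r1 the training ratio was smaller in fibril than in vehicle mice, by −0.55 (−0.68 to −0.43). On the linear scale the order turned, since the training difference in CPM was 7.54 CPM larger in fibril mice. Il6st and Stat3 had differences of −0.21 each, with intervals off 0, and the intervals of Il6ra, Osmr, Lifr, Cebpb and Cebpd included 0. Over all 12180 genes the median difference was −0.01 and 5.84% exceeded 1 in size. Each of these differences uses the VS library, which stood apart in skeletal muscle markers, and with 1 library per group none was tested across mice.

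**Figure D4:**
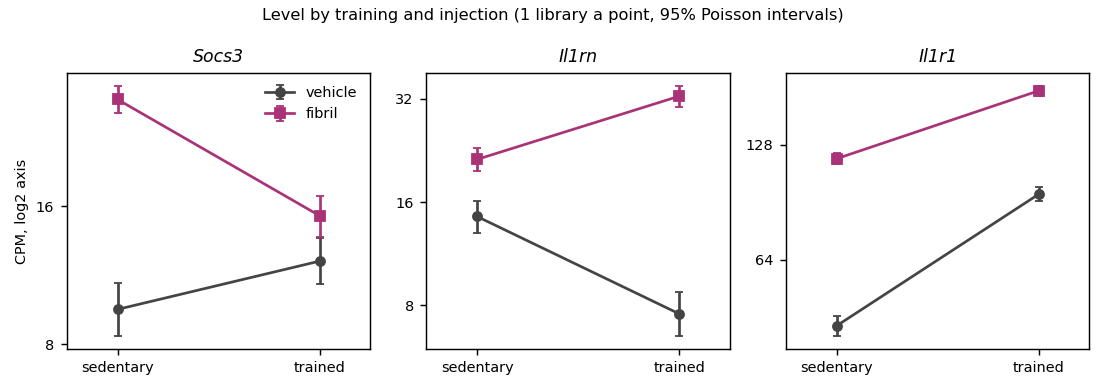
CPM on a log2 axis for Socs3, Il1rn and Il1r1 by training (horizontal) in vehicle (circles) and fibril mice (squares); points are 1 library each and whiskers 95% Poisson intervals. The lines of Socs3 converge towards the trained side (12.2 and 15.3 CPM), those of Il1rn diverge (7.55 and 32.6 CPM), and both lines of Il1r1 rise from left to right.

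The balance of antagonist to receptor mRNA can be read per length. The FPKM ratio of Il1rn to Il1r1 was 0.66 (VS), 0.155 (VI), 0.353 (FS) and 0.359 (FI), so it was highest in VS, lowest in VI and alike in the fibril libraries. For the feedback inhibitor and the transcription factor, the ratio of Socs3 to Stat3 was 0.169 (VS), 0.212 (VI), 0.308 (FS) and 0.197 (FI). FS was again the library that stood out.

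The rest of the pathway was followed in 6 lists of ligands, other receptors, kinases and other STATs, inhibitors, other C/EBP factors, and the relay from the IL-1 receptor to NF-κB. Of these 81 genes 65 could be tested in the additive model. With amyloidosis edgeR's quasi-likelihood test called 0 of them, as did DESeq2 and limma-voom. Over all genes edgeR called 2.81% higher and 2.17% lower, shares at which a list of 65 would hold few calls. In edgeR 11 of the 65 had an unadjusted p below 0.05, a p that 21.4% of all genes reached. With training edgeR called 1, Il22ra1, the receptor of interleukin-22, named here after its values were seen. It was at 0.974 CPM (VS), 2.75 (VI), 1.15 (FS) and 3.89 (FI), with a coefficient of 1.63 ± 0.298 SE (edgeR adjusted p = 0.0392), while DESeq2 called 0 of the 65 and limma-voom 1. An unadjusted p below 0.05 for training was found for 8 of the 65 in edgeR, and for 14.7% of all genes. After adjustment edgeR called 0.765% of all genes higher and 0.714% lower with training.

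Transcripts of the ligands were scarce in liver, and liver counts do not measure ligand made in other tissues. The study reported higher Il6 mRNA in quadriceps muscle of IT mice than of sedentary mice. Il6 was counted 1 (VS), 0 (VI), 6 (FS) and 9 (FI) times, Lif 7, 0, 3 and 0 times, and Osm 0, 0, 2 and 0 times, all at or near the limit of detection. Il1b was at 1.91 CPM (VS), 2.13 (VI), 2.51 (FS) and 3.02 (FI). Il33, an alarmin of the IL-1 family, was the ligand beyond 2-fold and is named after its values were seen. It was at 2.20 CPM (VS), 0.985 (VI), 2.40 (FS) and 0.827 (FI), so both trained libraries were lower, at log2 ratios of −1.14 and −1.52, and its training coefficient of −1.34 ± 0.334 SE did not pass edgeR's test (adjusted p = 0.112). Of the better measured ligands, Ctf1 (cardiotrophin-1) lay between 5.01 and 6.99 CPM and Il18 between 5.04 and 6.91. Il1rap, the partner chain of IL1R1, was at 121 CPM (VS), 119.9 (VI), 92.3 (FS) and 104 (FI), and thus lower in both fibril libraries, where Il1r1 was higher. The receptor genes Sigirr, Il10rb and Adam17, the last encoding a protease that sheds IL6RA, had log2 ratios between −0.45 and 0.42 in all 4 comparisons.

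Of the 9 kinases and STATs tested none was beyond 2-fold in any of the 4 comparisons. At most 3.6% of all genes were, in either direction of any comparison. Jak1, the main kinase on gp130, was at 81.0 CPM (VS), 77.1 (VI), 98.0 (FS) and 101 (FI), and Jak2 at 15.6, 12.9, 12.1 and 14.9 CPM. Stat5b, which relays growth hormone, was lower in both fibril libraries (58.0 and 59.8 CPM in FS and FI) than in VS (71.9) and VI (80.2), as was Stat5a (log2 ratios −0.54 and −0.19), and Jak3 was lower in the trained libraries (−0.53 and −0.26).

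Of the other inhibitors of the pathway, none of 14 tested was beyond 2-fold in any comparison. At most 3.6% of all genes lay there in either direction, so a list of 14 would hold few or none. In FS versus VS the largest log2 ratio among the 14 was 0.52, for Socs5, against 1.52 for Socs3. The median log2 ratio of the 14 was near 0 in both fibril comparisons. Cish was at 4.66 CPM (VS), 6.61 (VI), 5.76 (FS) and 3.51 (FI), and Socs2, like Cish a target of growth hormone, at 48.7, 68.6, 48.6 and 39.4 CPM. Both were lowest in FI, at log2 ratios of −0.91 and −0.80 against VI. Socs5 was at 8.87 CPM in FS and between 6.18 and 7.18 elsewhere, and Socs1 was too scarce to test, with 10 to 15 counts.

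Of the other C/EBP factors Cebpa, the factor of the resting hepatocyte, was highest in VS at 618 CPM, against 402 (VI), 421.2 (FS) and 367 CPM (FI). Its log2 ratios were −0.62 in VI versus VS and −0.55 in FS versus VS, but −0.20 in FI versus FS and −0.13 in FI versus VI, which do not use VS. Cebpz was higher in the trained libraries (0.65 and 0.45), and Ddit3, the stress-induced family member, lower (−0.29 and −0.62). In the IL-1 and NF-κB relay FS exceeded VS for 18 of 23 genes and FI exceeded VI for 19, with medians of 0.13 and 0.20. Beyond 2-fold were Rel in FS versus VS (1.31), and Irak3 (1.43) and Tnfaip3 (1.43) in FI versus VI. Of all genes 3.6% and 2.59% were higher by that much in these comparisons. Rel and Irak3 were at 1.36 CPM or less in every library. Tnfaip3, a brake on NF-κB, was at 3.35 CPM (VS), 2.09 (VI), 4.61 (FS) and 5.66 (FI), the same order of libraries as Il1rn. Tab2 was at 45.1 CPM in VS and 69.2 to 81.5 in the others, and Irak4 highest in FS at 5.93.

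Downstream of the signal, targets were followed in a list of intracellular STAT3 targets and a list of acute phase products. Both lists were chosen with earlier results of these data known. Of 15 intracellular STAT3 targets 13 were higher in FS than in VS and 12 in FI than in VI, with median log2 ratios of 0.33 and 0.15, and Vegfa was lower in both (−0.68 and −0.28). In edgeR's quasi-likelihood test 3 rose with amyloidosis: Fos (1.97 ± 0.276 SE, adjusted p = 0.00828), Steap4 (1.19 ± 0.211, adjusted p = 0.0301) and the survival gene Bcl2l1 (0.98 ± 0.184, adjusted p = 0.0336). Over all genes the model called 2.81% higher with amyloidosis and 0.714% lower with training. Fos was at 1.23 CPM in VS and in VI, 4.00 in FS and 5.83 in FI. Ccnd1, which encodes cyclin D1, was the 1 member of the list that fell with training (−1.51 ± 0.192 SE, edgeR adjusted p = 0.0168), from 34.4 CPM in VS to 15.8 in VI and from 39.1 in FS to 10.5 in FI.

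Of 23 acute phase products tested, of 25 listed, all 23 had more CPM in both fibril libraries than in the vehicle library of the same training. Beyond 2-fold were 15 in FS versus VS and 9 in FI versus VI, with median log2 ratios of 1.22 and 0.66. Of all genes 3.6% and 2.59% were higher by that much in these comparisons, with medians of 0.02 and 0.01. The model called 12 of them higher with amyloidosis and 2, Lbp and Cd14, higher with training by edgeR's test. Over all genes it called 2.81% higher with amyloidosis and 0.765% higher with training. Saa2, a serum amyloid A gene, was at 9.95 CPM (VS), 51.1 (VI), 523 (FS) and 1164 (FI), Saa1 at 30.0, 155, 945 and 1803 CPM, and Lcn2 at 6.35, 36.5, 367 and 549 CPM. These 3 followed the order VS, VI, FS, FI of Il1r1 and Cebpd. FI exceeded FS for 14 of the 23 products tested, and the rest were lower in FI. The fibrinogen gene Fgb, named after its values were seen, is an example of the rest. It was highest in FS (9689 CPM) and lower in FI (7828), the order of Stat3 and Socs3. Saa1 and Saa2 are near-identical copies that can share reads, so their split is uncertain.

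**Figure D5:**
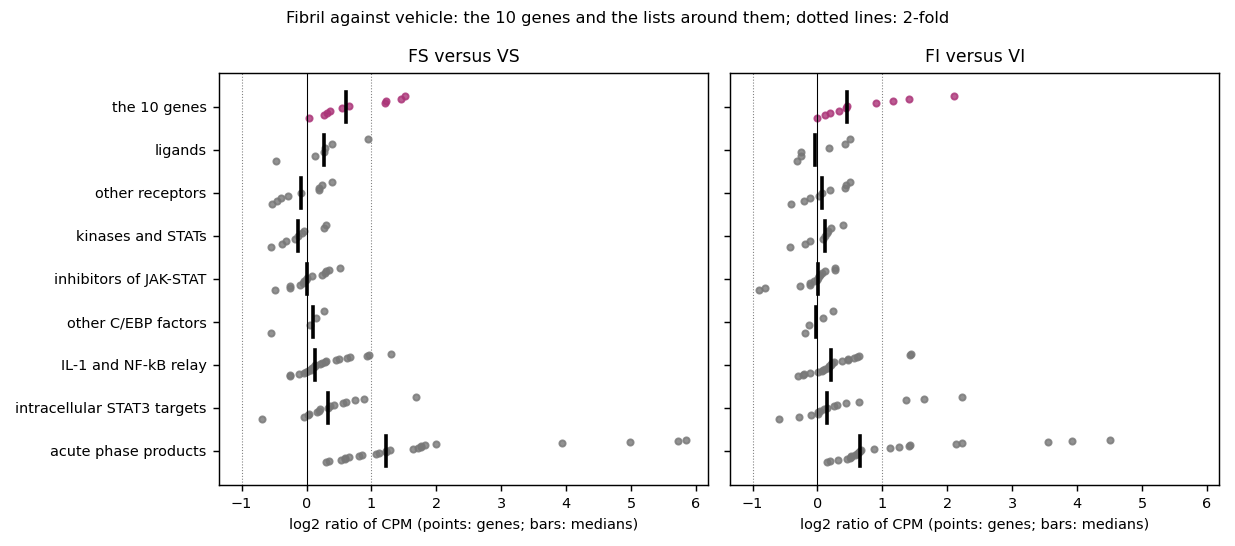
Log2 ratios of CPM (horizontal axis) of fibril against vehicle in sedentary (FS versus VS) and trained mice (FI versus VI) for the 10 genes and 8 lists; points are genes and bars are medians. The acute phase products lie furthest to the right (medians 1.22 and 0.66), and kinases and inhibitors lie around 0.

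Positions of the genes are those listed beside the counts, on mm10. Il6ra (ENSMUSG00000027947) lies on chromosome 3 from 89869324 to 89913162, Il6st on 13 from 112464070 to 112510086, Osmr on 15 from 6813577 to 6874969 and Lifr on 15 from 7129559 to 7197489. Il1r1 lies on chromosome 1 from 40225080 to 40316198 and Il1rn on 2 from 24336853 to 24351494. Stat3 lies on 11 from 100885098 to 100939540, Socs3 on 11 from 117966079 to 117970047, Cebpb on 2 from 167688915 to 167690418 and Cebpd on 16 from 15887286 to 15888466. Exons of 3 of them overlap a gene on the opposite strand in GENCODE M21: Cebpb shares 312 bases with Tmem189, Il6ra 242 with Gm42809 and Stat3 72 with Stat5a. The strand setting of the counting is not stated, so reads in those stretches cannot be told apart.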

How the data were processed

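Liver tissue of 4 mice per group was homogenized, pooled by group and sequenced by the authors as 4 libraries. The authors deposited raw read counts per gene and FPKM; the deposited FPKM equalled count over gene length and library total (ratio 1). The submitters' processing notes name fastp 0.23.2, STAR 2.5, HTSeq 0.6.1 and mm10. Here counts were scaled by TMM in edgeR 4.0.16 (R 4.3.3), with limma 3.58.1, DESeq2 1.42.0, Python 3.11.15 and matplotlib 3.10.9. Log2 ratios used a prior of 0.5 counts and the 12180 genes that reached 1 CPM in 1 library or more, with exact conditional binomial (Clopper-Pearson) intervals. The additive model (3 coefficients, robust quasi-likelihood, Benjamini-Hochberg) used the 11760 genes that reached 1 CPM in 2 libraries or more. It was also run on simulated counts with an amyloidosis effect only. Such counts cannot show how it treats genes whose effects are not additive. With 1 library per group, ratios have no p, and p-values of the model rest on additivity.

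Named were the 10 genes, preset pathway genes, the 3 genes of each list with the largest ratio among those at 5 CPM or more, and the 3 nearest profiles to Socs3 and Cebpb. The members and lists were chosen with earlier results of these data known. Alternatives were DESeq2 size factors, upper quartile and total-count scaling, other filters, a prior of 5 counts, FPKM with a pseudocount of 1 or 0.1, DESeq2, limma-voom, no robust estimation and the factor alone. Adgre1 and Jchain, 2 listed markers, were not analysed here, and 1 preset pathway gene is not reported here.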

Additional observations from a re-analysis of the deposited data

Results flagged for a closer look

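For 3 of the 10 genes the training ratio pointed in opposite directions in vehicle and fibril livers, with both counting intervals off 0. How many of all genes meet this rule was not counted, so no background share stands beside these 3. Il1rn, the IL-1 receptor antagonist, had a log2 ratio of −0.94 in vehicle mice (VI versus VS) and 0.61 in fibril mice (FI versus FS). Socs3, the inhibitor of gp130 signalling, had 0.35 and −0.84 in the same order. Il6st, the shared receptor chain, had 0.087 and −0.12, both small. Its interval in vehicle mice, 0.016 to 0.157, came close to 0. That ratio was 0.066 with total counts and 0.060 with upper quartile scaling, for which no interval was computed. The flag on Il6st thus depends on the scaling. Each comes from 1 pooled library per group, the ratios in vehicle mice use the VS library that stood apart in skeletal muscle markers, and the difference was not tested across mice.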

How the results depend on the processing

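Each group is 1 library, so leaving a library out leaves no residual degree of freedom and was not run. No paired analysis was possible because each group is 1 library. The number of the 10 genes beyond 2-fold varied by at most 1 in each comparison under all 8 alternatives. Over all genes, counts beyond 2-fold were 419 in VI versus VS, 519 in FI versus FS, 704 in FS versus VS and 553 in FI versus VI. They became, in that order, 4035, 4044, 4429 and 4197 without a filter on low counts, 144, 203, 353 and 229 with a filter at 5 CPM, and 107, 117, 242 and 139 on FPKM with a pseudocount of 1; with a pseudocount of 0.1 the first was 269. In the additive model 585 genes were called with amyloidosis, against 1519 without a filter and 8 with the factor alone. For training 174 were called, against 296 with upper quartile scaling, 276 with total counts, 740 without a filter, 82 with a filter at 5 CPM and 0 with the factor alone. Of the 10 genes 4 were called with amyloidosis, between 3 and 6 under the other settings and 0 with the factor alone; for training 1 was called, and 0 with the 5 CPM filter or the factor alone. Socs3 passed for amyloidosis without a filter (adjusted p = 1.08e-06). The training coefficient of Il1rn, −0.10, turned to 0.029 in limma-voom and 0.16 with the factor alone, and the difference of training effects of Il1r1, −0.55 on the log2 scale, was 7.54 in CPM. The cause of these changes was not tested. Of 408 single ratios, coefficients and differences under alternatives, 10 changed sign. Beside those of Il1rn and Il1r1 these were ratios near 0, of Stat3 in VI versus VS in 4 settings and Lifr in FS versus VS in 1, and the differences of Osmr and Cebpd in CPM, whose log2 intervals included 0. Depth limits Osmr and the ligands, with at most 204 counts each in a library.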
